A study of Homo sapiens with 6 samples.

Results

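Isolated open regions are stretches of accessible DNA that lie far from any other. They were taken as merged ATAC-seq peak regions on chromosomes 1 to 22 that were called in 2 or more of 6 libraries and had no other called region, of any library, within 100 kb on either side. There were 745 of them, 1.72% of the 43265 regions of these chromosomes called in 2 or more libraries. The whole series held 58926 merged regions. ATAC-seq inserts sequencing adapters into open DNA with a transposase, and a peak is a place where insertions pile up above the local background. The libraries came from HCT116, a long-established line of human colon cancer cells, and formed 2 groups of 3. In the NuMA-depleted group the nuclear mitotic apparatus protein, a nucleoskeleton protein, had been depleted, and the wild-type group was its control. The labels name no other treatment or allele in either group, and they do not say how NuMA was depleted, whether a group is 1 clone, or whether its replicates were separate cultures. P-values therefore reflect only how much the libraries vary, and that variation may be technical.

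Most open regions of a human cell lie near other open regions, since promoters and the enhancers around them cluster in gene-rich chromatin. Long stretches with few genes are mostly packed at the nuclear periphery, and open sites inside them can be distal enhancers or sites bound by the insulator protein CTCF. NuMA is a large coiled-coil protein that organises spindle poles in mitosis and is part of the nuclear interior between divisions. The series concerns its role in how chromatin is organised locally. An empty stretch is here one with no peak in the lists analysed, which is not the same as closed chromatin, and any peak not analysed here would shorten it or end a region's isolation. No genome sequence or annotation of build hg19, in which all positions are given, was used here, so no gene names or sequences stand beside the regions, and the labelled cell type was not checked against marker genes. The peak lists hold no measure of NuMA itself.

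The number of peaks was between 21783 and 45892 for the NuMA-depleted and between 32503 and 38685 for the wild-type lists. Relative depth, an estimate recovered from the peaks' own statistics on a scale with a mean of 1, was 1.07 to 1.21 for the NuMA-depleted group. For the wild-type group it was 0.762 to 0.975. By this estimate each NuMA-depleted library lay above each wild-type one, but depth in reads is unknown. NuMA-depleted replicate 3 had the shortest list, although its relative depth was above that of each wild-type library. The part of list length and depth in the counts of called regions below was not tested.

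The rule has a sharp edge. Just inside it, a region on chromosome 2 at 19172619 to 19173279 had 100007 bp to its nearer neighbour, one on chromosome 7 at 119811066 to 119812132 had 100232 bp, and one on chromosome 6 at 134858164 to 134858861 had 100258 bp. These were called in 3, 5 and 6 libraries. Just outside it, the region on chromosome 13 starting at 26148493 and ending at 26148843 had its nearer neighbour 99886 bp away. For chromosome 8, 117460082 to 117460577, the distance was 99815 bp, and for chromosome 14, 45895866 to 45896317, it was 99797 bp. These were called in 2, 2 and 4 libraries. Their folds in single libraries ran from 4.22 to 10.3 inside and from 5.17 to 12.2 outside the limit. A fold is the peak's enrichment over the local background estimated by the peak caller, the authors' own value for that list.

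Isolated regions were small sites in long empty stretches. Their merged width had a median of 555 bp, from 238 to 2911 bp, and together they covered 490 kb. The gap to the nearer neighbour had a median of 137 kb and reached 2064 kb, and the gap to the farther neighbour had a median of 249.9 kb. For the other 42520 regions called in 2 or more libraries the nearer neighbour was at a median of 9.66 kb. Most isolated regions were close to the limit: 440 of the 745 (59.1%) had a nearer neighbour under 150 kb away, 162 (21.7%) at 200 kb or more, 22 at 500 kb or more and 7 at 1 Mb or more. Gaps of 100 kb or more were 4785 of 57741 gaps between regions (8.29%), yet made up 53.1% of the gap length, 1460.1 Mb. Stretches that cannot be mapped were not taken out of this length. Of these gaps, 1333 bordered an isolated region. In 414 isolated regions (55.6%) the next region on at least 1 side was called in 1 library only.

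Some isolated regions followed one another. Of the 745, 276 (37.0%) had another isolated region as their next neighbour, in 119 runs of 2 or more. The next neighbour of an isolated region already has 100 kb or more empty on the shared side, so it meets part of the rule. How many such neighbours this alone would give was not computed, so 37.0% is a description only. The longest run held 8 regions over 2.09 Mb on chromosome 4, from 33062442 to 35154023, with gaps between 112 and 659 kb inside it. Only 1 of the 8, at 34182769 to 34183544, was called in all libraries, with folds of 6.81, 7.92 and 6.28 in NuMA-depleted replicates 1, 2 and 3 and of 7.32, 7.06 and 8.18 in wild-type replicates 1, 2 and 3. The highest fold of the run, 13.5, belonged to wild-type replicate 2 at 34954885 to 34955342, which was also called in NuMA-depleted replicates 1 and 2 with folds of 11.04 and 8.25 and in wild-type replicates 1 and 3 with 7.15 and 9.27. The last region of the run, at 35153744 to 35154023, was 280 bp wide and was called in NuMA-depleted replicates 1 and 2 and wild-type replicate 1. This run was picked for its length after the values were seen.

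Calls of isolated regions spread over all libraries in both groups. NuMA-depleted replicates 1, 2 and 3 called 518, 651 and 309 of the 745, and wild-type replicates 1, 2 and 3 called 524, 531 and 473. The wild-type counts thus lie between those of NuMA-depleted replicates 3 and 2, which had the shortest and the longest list. As a share of each library's own peaks on chromosomes 1 to 22, peaks in isolated regions made up 1.39%, 1.46% and 1.46% in the NuMA-depleted and 1.53%, 1.43% and 1.49% in the wild-type libraries. The groups overlapped, and the rule used presence, so these counts carry no test.

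Calls in all 6 libraries were a smaller part of isolated than of other regions. Of the 745, 216 (29.0%) were called in all libraries, against 38.7% of the other regions and 38.5% of all regions called in 2 or more libraries. At the other end, 187 (25.1%) were called in just 2 libraries, against 18.5% of the others. Between these, 133, 108 and 101 isolated regions were called in 3, 4 and 5 libraries. The share of regions that were isolated ran the same way, at 1.30% of the regions called in 6 libraries, 1.46% in 5, 1.97% in 4, 2.17% in 3, 2.32% in 2 and 3.25% of those called in 1. A further 471 isolated regions of 1 library fell outside the rule. They numbered 57, 160 and 24 for NuMA-depleted replicates 1, 2 and 3 and 97, 92 and 41 for wild-type replicates 1, 2 and 3. As a share of the regions called by that library alone they were 2.35%, 2.89% and 6.42% in NuMA-depleted and 4.61%, 3.39% and 3.06% in wild-type replicates 1, 2 and 3, so NuMA-depleted replicate 3 had the lowest count and the highest share, 24 of 374.

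**Figure D1:**
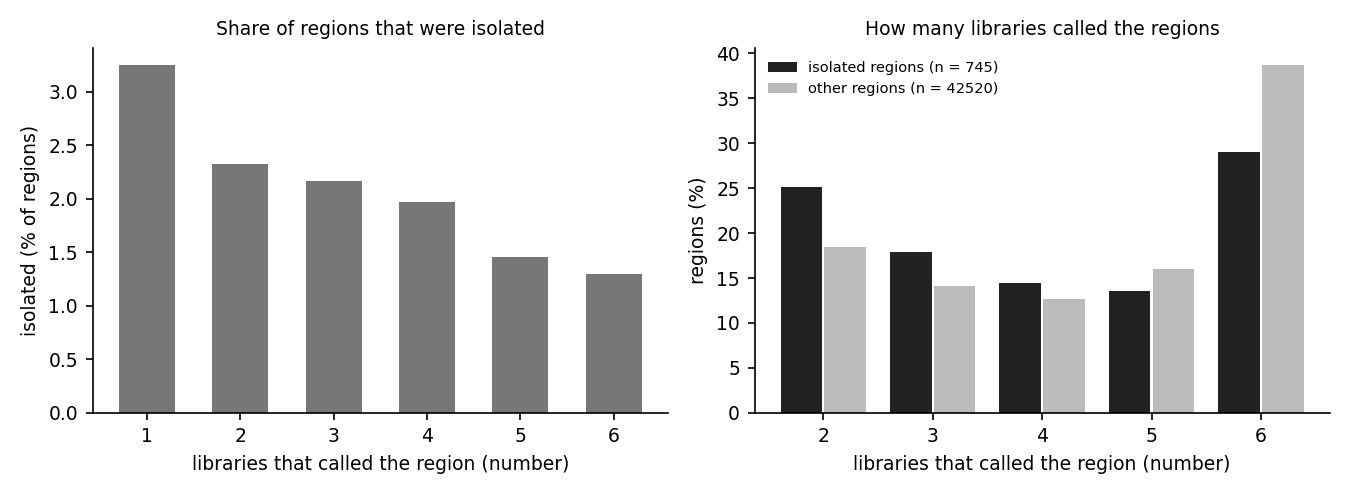
The left panel plots the percent of merged regions that were isolated (bars) against the number of libraries that called them, falling from 3.25% at 1 library to 1.30% at 6. The right panel plots the percent of isolated (black) and other (grey) regions called in 2 to 6 libraries, where 29.0% of isolated and 38.7% of other regions were called in all 6.

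Presence can be tested in a library that had no part in choosing the regions. The rule was therefore applied to 5 lists at a time, and the share of the isolated regions that the left-out library also called was set beside the same share of the other regions. NuMA-depleted replicate 1 called 66.8% of 757 such isolated regions (95% Wilson interval 63.4% to 70.1%), against 78.9% of the others. NuMA-depleted replicate 2 called 84.1% of 792 (81.4% to 86.5%), against 89.7%, and NuMA-depleted replicate 3 called 40.7% of 749 (37.3% to 44.3%), against 47.4%. Wild-type replicate 1 called 69.3% of 769 isolated regions (66.0% to 72.5%), against 72.5% of the others. Wild-type replicate 2 called 68.9% of 753 (65.5% to 72.1%), against 78.1%, and wild-type replicate 3 called 61.5% of 746 (58.0% to 65.0%), against 68.4%. The intervals cover counting error only.

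An isolated region was thus less often recovered than another region in 6 of 6 left-out libraries. The difference was -7.27 ± 3.04 percentage points (SD, n = 6; p = 0.0313, exact sign-flip permutation test, two-sided, adjusted over 6 measures 0.0313), and this p is the smallest that 6 libraries allow. The same regions recur in the 6 comparisons, which are therefore not independent. With equal numbers of peaks per library the difference was -3.80 points and missed the threshold (exact p = 0.0625), and with a gap limit of 50 kb it was -4.08 points (exact p = 0.0313). The difference was -8.12 ± 3.46 points for the NuMA-depleted group and -6.43 ± 2.999 points for the wild-type group (SD, n = 3 each; exact permutation test between groups, p = 0.7).

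The groups did not differ beyond the spread of their libraries in how many isolated regions they recovered. The left-out NuMA-depleted libraries called 63.9% ± 21.8 and the wild-type libraries 66.6% ± 4.39 of the isolated regions (SD, n = 3 each), a difference of -2.70 points (exact permutation test, two-sided, p = 0.8, adjusted over 2 comparisons 0.8). With 3 libraries against 3 this test cannot go below 0.10. The spread in the NuMA-depleted group lies between its replicates 2 and 3, and without NuMA-depleted replicate 3 the difference turned to 8.85 points (exact p = 0.4). Without NuMA-depleted replicate 2 it was -14.4 points (exact p = 0.2).

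**Figure D2:**
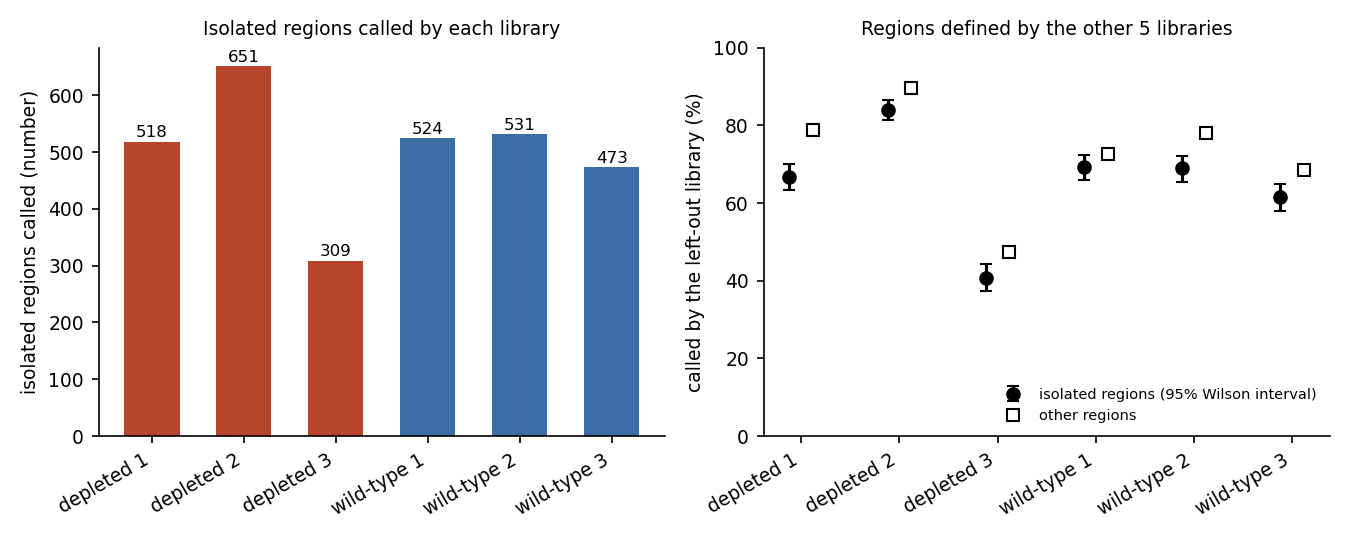
The left panel plots the number of the 745 isolated regions called by each library (bars, NuMA-depleted in red, wild-type in blue), from 309 in NuMA-depleted replicate 3 to 651 in NuMA-depleted replicate 2. The right panel plots the percent of isolated regions (filled circles with 95% Wilson intervals) and of other regions (open squares), both defined by the remaining 5 libraries, that each library called; the squares lie above the circles in all 6 libraries.

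Few isolated regions were exclusive to a group. Called in all 3 NuMA-depleted and in no wild-type library were 3 isolated regions (0.403%), where the background over all regions called in 2 or more libraries was 0.832%. Called in all 3 wild-type and in no NuMA-depleted library were 13 (1.74%), against a background of 0.79%. With equal numbers of peaks per library 21 of 1311 isolated regions (1.60%, background 1.65%) were exclusive to the NuMA-depleted and 20 (1.53%, background 1.25%) to the wild-type libraries. Without NuMA-depleted replicate 3 the counts were 51 of 749 (6.81%, background 6.18%) and 15 (2.003%, background 0.844%). Leaving out any of the other 5 libraries gave 7 to 12 NuMA-depleted-only regions (0.884% to 1.56%, backgrounds 1.11% to 1.7%). Wild-type-only regions numbered 36 without NuMA-depleted replicate 2 (4.55%, background 3.32%) and 18 without NuMA-depleted replicate 1 (2.38%, background 1.5%). Without wild-type replicates 1, 2 and 3 they numbered 22, 23 and 34 (2.86%, 3.05% and 4.56%, backgrounds 1.86%, 1.5% and 2.29%). No test was made on these counts, since the rule used presence, and a region absent from a list missed the caller's threshold there and need not have been closed.

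The 3 NuMA-depleted-only regions differed in strength. On chromosome 13 at 78711737 to 78712277 the folds were 8.87, 8.15 and 9.005 in NuMA-depleted replicates 1, 2 and 3, with the summits of the 3 libraries within 2 bp and the nearer neighbour 386 kb away. On chromosome 7 at 115347259 to 115348078 they were 8.27, 6.07 and 8.03, with 389 kb to the nearer neighbour. On chromosome 4 at 87260226 to 87260634 they were 11.2, 7.07 and 4.16, so this call rested on a weak peak in NuMA-depleted replicate 3, where its −log10 q was 2.87.

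The 13 wild-type-only regions lay on 9 chromosomes, with folds in single libraries from 3.96 to 12.6. The strongest, ranked by its lowest −log10 q in any calling library, was on chromosome 3 at 130257732 to 130258295, with folds of 9.33, 9.01 and 8.27 in wild-type replicates 1, 2 and 3. On chromosome 10 at 117332514 to 117333011 the folds were 8.80, 8.58 and 7.38. A region on chromosome 5 at 84344792 to 84345383 had 414 kb empty on one side and 1497 kb on the other, and its folds were 6.85, 6.86 and 6.79 in wild-type replicates 1, 2 and 3, nearly equal. The next were on chromosome 10 at 32980975 to 32981457, then on chromosome 21 (36880689 to 36881024) and on chromosome 6 (101081043 to 101081412). In the last of these folds ran from 6.07 to 12.6. A −log10 q of at least 5 in every calling library was found for 2 of the 3 regions exclusive to NuMA-depleted libraries and for 9 of the 13 exclusive to wild-type libraries.

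Other patterns of presence crossed the groups. Missing from NuMA-depleted replicate 3 alone were 61 isolated regions (8.19%), against a background of 11.6%. Called in NuMA-depleted replicates 1 and 2 alone were 47 (6.31%), against a background of 5.3%. NuMA-depleted replicate 2, the longest list, shared 33 isolated regions with wild-type replicate 2 alone (4.43%, against 3.19% of the other regions) and 30 with wild-type replicate 1 alone (4.03%, against 2.17%). More NuMA-depleted than wild-type libraries called 159 isolated regions (21.3%, background 18.9%), and more wild-type than NuMA-depleted libraries called 199 (26.7%, background 24.5%). Both shares were near the background.

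Within each library, isolated regions had higher folds than the other regions. The median fold of isolated regions was 8.05, 7.51 and 6.72 in NuMA-depleted replicates 1, 2 and 3 and 7.41, 8.32 and 7.497 in wild-type replicates 1, 2 and 3. For the other regions it was 7.22, 6.92 and 6.13 in NuMA-depleted replicates 1, 2 and 3 and 6.78, 7.64 and 7.01 in wild-type replicates 1, 2 and 3. Folds belong to their own list and are compared within it. Isolated regions were higher in 6 of 6 libraries, by 0.636 ± 0.115 (SD, n = 6; exact sign-flip permutation test, two-sided, p = 0.0313, adjusted over 6 measures 0.0313). The difference was 0.673 ± 0.136 for the NuMA-depleted group and 0.598 ± 0.101 for the wild-type group (SD, n = 3 each; exact permutation test between groups, p = 0.6). It depended on the regions compared. Against only those other regions with 20 kb or more to the nearer neighbour it was -0.0372 (exact sign-flip p = 0.406).

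The higher fold went with a lower background, not with more fragments. The fold and p-value of a peak together give the pileup at its summit, in fragments, and the local background the caller set against it. These measures were added after the data were seen. The median pileup of isolated regions was 18.5, 22 and 16 fragments in NuMA-depleted replicates 1, 2 and 3 and 15, 16 and 15 in wild-type replicates 1, 2 and 3. The other regions had 24, 30 and 20 fragments in NuMA-depleted replicates 1, 2 and 3 and 21, 22 and 21 in wild-type replicates 1, 2 and 3. Isolated regions were thus lower by 4 to 8 fragments in 6 of 6 libraries (mean difference -5.92 ± 1.28, SD, n = 6; exact sign-flip p = 0.0313, adjusted 0.0313). The difference was -2.92 fragments among regions called in all 6 libraries and -3.33 with a gap limit of 50 kb (exact p = 0.0313 each). Only called peaks enter these medians, and the caller sets the pileup against the local background. A peak over a lower background can thus be called with fewer fragments, and the part of this in the difference was not tested.

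The local background was lower still in proportion. At isolated regions its median was 1.43, 1.91 and 1.55 fragments in NuMA-depleted replicates 1, 2 and 3 and 1.14, 1.01 and 1.13 in wild-type replicates 1, 2 and 3, between 51.5% and 64.4% of the median at other regions, where the pileup was 71.4% to 80.0%. The difference was -1.03 ± 0.209 fragments (SD, n = 6; lower in 6 of 6 libraries; exact sign-flip p = 0.0313, adjusted 0.0313), and -0.558 against other regions at 20 kb or more from a neighbour (exact p = 0.0313). The background stood within 2% of the lowest of its library in 18.9% to 29.4% of the isolated regions a library called, and in 2.86% to 5.01% of the others. The part of neighbouring open regions in the local background was not tested.

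**Figure D3:**
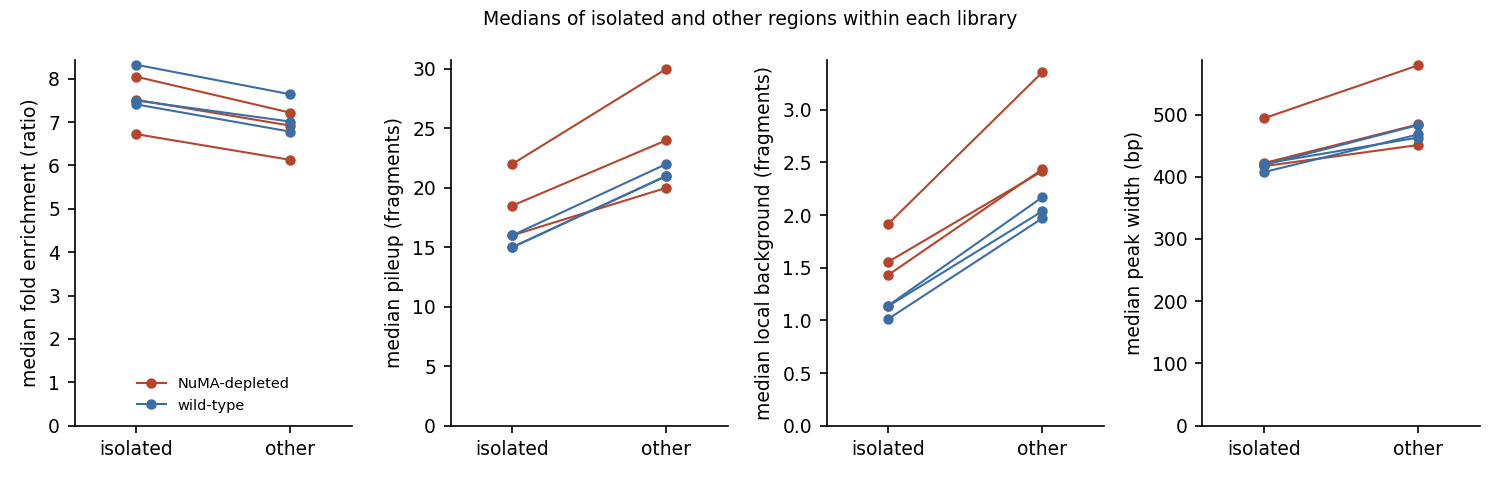
Each panel plots the median over isolated and over other regions (called in 2 or more libraries) within each of the 6 libraries, joined by a line, NuMA-depleted in red and wild-type in blue: fold enrichment (ratio), summit pileup (fragments), local background (fragments) and peak width (bp). Fold was higher at isolated regions in all 6 libraries, while pileup, background and width were lower.

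Regions at 20 to 100 kb from a neighbour already had folds as high as isolated ones. Regions whose nearer neighbour was under 1 kb away had 0.779 times the library's overall median fold, averaged over the libraries, and those at 1 to 5 kb had 0.844 times. At 5 to 20 kb the ratio was 1.05, at 20 to 50 kb 1.09 and at 50 to 100 kb 1.11. In isolated regions it was 1.09 at 100 to 200 kb and 1.09 at 200 kb or more. Set only against regions with at least 20 kb to the nearer neighbour, isolated regions differed in fold by -0.0372, less than the spread between libraries (exact sign-flip p = 0.406), a comparison chosen after the data were seen. Background and pileup, by contrast, were lower still in isolated regions, where at 100 to 200 kb and at 200 kb or more the background was 0.590 and 0.517 times and the pileup 0.767 and 0.724 times the overall median.

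**Figure D4:**
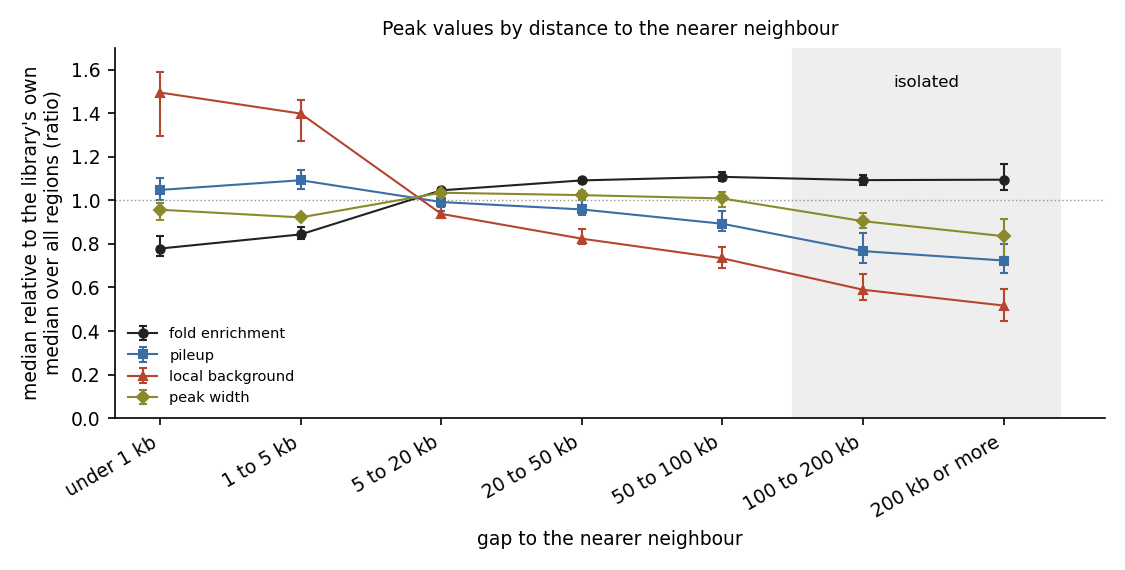
Median fold, pileup, local background and peak width of regions called in 2 or more libraries, as a ratio to the library's own median over all such regions, against the gap to the nearer neighbour; points are means and bars the lowest and highest of the 6 libraries, and the shaded bins are the isolated regions. Fold levels off near 1.09 from 20 kb, while background falls from 1.49 under 1 kb to 0.517 at 200 kb or more.

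Isolated regions were narrower than others in their own lists. The median peak width at isolated regions was 422, 494 and 417 bp in NuMA-depleted replicates 1, 2 and 3 and 408, 421 and 419 bp in wild-type replicates 1, 2 and 3. At other regions it was 484, 579 and 451 bp in NuMA-depleted replicates 1, 2 and 3 and 468, 463 and 483 bp in wild-type replicates 1, 2 and 3. The difference was -57.9 ± 18.0 bp, in 6 of 6 libraries (SD, n = 6; exact sign-flip permutation test, p = 0.0313, adjusted 0.0313). It was -14.0 bp with a gap limit of 50 kb, which missed the threshold (exact p = 0.0938), and -21.7 bp with equal numbers of peaks (exact p = 0.0313). Among regions called in all 6 libraries it reversed, to 15.2 bp wider at isolated regions (exact p = 0.0625). Between the groups the median width at isolated regions was 444 ± 43.1 bp for the NuMA-depleted group and 416 ± 7.29 bp for the wild-type group (SD, n = 3 each; exact permutation test, p = 0.4, adjusted over 2 comparisons 0.8), and without NuMA-depleted replicate 2, whose smallest peak was the widest at 264 bp, the difference was 4.92 bp.

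Isolated regions called in more libraries had mostly higher folds. The mean over libraries of the median fold was 5.91 for isolated regions called in 2 libraries, 6.55 in 3, 6.47 in 4, 7.24 in 5 and 9.07 in 6. The other regions had 5.38, 5.72, 6.08, 6.48 and 7.84 for the same numbers. At each number of libraries the isolated regions thus had the higher mean. Restricted to regions called in all libraries, the difference in fold within libraries was 1.24 (exact sign-flip p = 0.0313), against 0.636 over all regions. The other regions here include those close to a neighbour, where folds were lower. Against others at 20 kb or more the difference over all regions was -0.0372, and that comparison was not made by number of libraries. Over all calls, folds at isolated regions ran from 3.41 to 21.3.

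Summits at isolated regions lay slightly closer together across libraries than those at other regions. The summit of a library lay at a median of 35, 36 and 40 bp from the median summit of the other libraries in NuMA-depleted replicates 1, 2 and 3 and 35, 35 and 37 bp in wild-type replicates 1, 2 and 3. For the other regions it was 36, 40 and 44 bp in NuMA-depleted replicates 1, 2 and 3 and 40, 36 and 40 bp in wild-type replicates 1, 2 and 3. The difference of -3.00 ± 1.67 bp was small but had the same sign in 6 of 6 libraries (SD, n = 6; exact sign-flip permutation test, p = 0.0313, adjusted 0.0313). It missed the threshold with a gap limit of 50 kb (-1.50 bp, exact p = 0.25) and among regions called in all 6 libraries (-4.92 bp, exact p = 0.0625).

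The 3 strongest isolated regions called in all libraries, ranked by their lowest −log10 q in any library, stood beside very long empty stretches. On chromosome 7 at 61968804 to 61969611 the folds were 15.2, 12.7 and 14.8 in NuMA-depleted replicates 1, 2 and 3 and 14.5, 16.2 and 13.7 in wild-type replicates 1, 2 and 3, with 5.70 Mb empty before it and 2.03 Mb after it. The widest isolated region, 2911 bp on chromosome 6 at 58776530 to 58779440, had folds from 7.15 to 8.59 and 5.24 Mb empty after it. On chromosome 1 at 121484437 to 121485422 the folds ran from 7.21 to 9.79, with 21.05 Mb empty after it. As background, these long stretches include the centromeres of the 3 chromosomes, where satellite repeats are hard to map.

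These 3 stood apart from the other isolated regions in fragments. The local background in them was 14.5 to 27.2 fragments on chromosome 7, 28.6 to 61.02 on chromosome 6 and 13.96 to 21.5 on chromosome 1, against library medians of 1.01 to 1.91 at isolated regions. Pileups were 227 to 395, 224 to 488 and 128 to 193 fragments. Artefact-prone regions were not screened out here, and whether these are artefacts was not tested. Without the 78 isolated regions beside an empty stretch of 1 Mb or more, 667 regions were left and the difference in fold was 0.638 (exact p = 0.0313).

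The next strongest by the same −log10 q ranking lay inside chromosome arms, with local backgrounds of at most 8.72 fragments. On chromosome 3 at 66271083 to 66271833 the folds were 11.7, 10.8 and 13.9 in NuMA-depleted replicates 1, 2 and 3 and 11.8, 15.4 and 11.3 in wild-type replicates 1, 2 and 3, over backgrounds of 2.45 to 6.33 fragments. On chromosome 21 at 15754950 to 15756072 they were 9.32, 8.93 and 10.6 in NuMA-depleted and 10.4, 11.04 and 10.7 in wild-type replicates 1, 2 and 3. On chromosome 19, which holds few isolated regions, the region at 8942691 to 8943856 had folds of 10.1, 8.85 and 10.5 in NuMA-depleted and 9.24, 9.83 and 9.15 in wild-type replicates 1, 2 and 3. In each of these 3 regions the folds of the groups overlapped.

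The region on chromosome 13 at 38923092 to 38924525 combined strength with distance, with 1274 kb empty before it and 565 kb after it. Its folds were 9.96, 9.71 and 10.3 in NuMA-depleted and 12.1, 12.9 and 10.02 in wild-type replicates 1, 2 and 3. Of the remaining 3 of the 10 strongest, the region on chromosome 7 at 132766288 to 132767141 had folds between 10.04 and 13.3. For that on chromosome 6, 88299415 to 88300105, they were between 12.2 and 14.4, and for that on chromosome 7, 92861128 to 92861938, between 9.78 and 11.5. Folds belong to their own lists and were not tested between groups.

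The farthest from any neighbour was a narrow region on chromosome 9 at 40791871 to 40792260. It had 2.06 Mb without a peak before it and 2.79 Mb after it, and how much of this can be mapped was not tested. The region's folds were 13.3, 15.97 and 8.93 in NuMA-depleted replicates 1, 2 and 3 and 14.2, 11.4 and 11.3 in wild-type replicates 1, 2 and 3, over backgrounds of 0.748 to 1.44 fragments, the lowest of their libraries. On chromosome 15 the region at 25683297 to 25684973 had 1.80 and 2.58 Mb empty around it among the peaks analysed here and was wide, 1677 bp, with folds from 5.58 to 9.12. For chromosome 10, 58120632 to 58121796, the folds ran from 10.3 to 13.5, with 3476 and 1703 kb empty around it. On chromosome 1 at 104067845 to 104069008 they ran from 5.68 to 8.60, with 1504 and 3530 kb empty. These regions, and the one on chromosome 7 beside its longest gap, were called in all 6 libraries, and they are the 5 with the largest gap to the nearer neighbour.

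After the one on chromosome 6, the widest isolated regions were on chromosome 6 at 82461474 to 82463984, with 2511 bp, and on chromosome 12 at 59989455 to 59991462, with 2008 bp. Their folds ran from 4.90 to 6.71 and from 5.92 to 7.46 over the 6 libraries. Their summits differed between libraries by up to 1493 and 1162 bp. Over the 216 isolated regions called in all libraries the range of the 6 summits had a median of 147 bp and was 100 bp or less in 33.3%, against 163 bp and 29.5% in the 16454 others called in all libraries.

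Isolated regions were most frequent on chromosomes with few open regions. Chromosome 4 held 91 of the 745 (12.2%), against 4.42% of all regions called in 2 or more libraries. Chromosome 13 held 37 (4.97%, against 2.28%) and chromosome 18 held 23 (3.09%, against 1.95%). Per 10 Mb between the first and last region of the chromosome, there were 4.78 isolated regions on chromosome 4, 3.90 on chromosome 13, 3.74 on chromosome 12 and 3.59 on chromosome 7. At the low end were chromosome 20 with 0.638, chromosome 17 with 0.741, chromosome 22 with 1.18 and chromosome 16 with 1.22.

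Spearman's rho between regions per Mb and isolated regions per 10 Mb was -0.775 over 22 chromosomes, given as a description, since both are counted from the same regions. Chromosome 9 had 1.704 isolated regions per 10 Mb at 12.8 regions per Mb, whereas chromosome 12 had 3.74 at 16.7. Gaps of 100 kb or more took up 63.8% of the span of chromosome 4, 64.8% of chromosome 13 and 60.6% of chromosome 9, and 18.7% of chromosome 22. The longest gap of chromosome 9 was 20.8 Mb. Stretches that cannot be mapped were not taken out of the spans or the gaps. The part of isolated regions called in all 6 libraries was 17.6% on chromosome 4, 35.0% on chromosome 1 and 38.6% on chromosome 7. Over the 22 chromosomes it ran from 9.09% on chromosome 16, with 11 isolated regions, to 75% on chromosome 19, with 8. The same part among all regions of each chromosome was not counted, so these values are not particular to isolated regions.

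On chromosome 4 the libraries called 66, 78 and 29 of the 91 isolated regions in NuMA-depleted replicates 1, 2 and 3 and 63, 69 and 55 in wild-type replicates 1, 2 and 3. The wild-type counts again lay between those of NuMA-depleted replicates 3 and 2. On chromosome 1 the counts were 50, 54 and 28 of 60 in the NuMA-depleted and 45, 42 and 40 in the wild-type libraries. On chromosome 19 they were 8, 7 and 6 of 8 in the NuMA-depleted and 7, 7 and 8 in the wild-type libraries. In none of these 3 chromosomes did the groups separate.

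**Figure D5:**
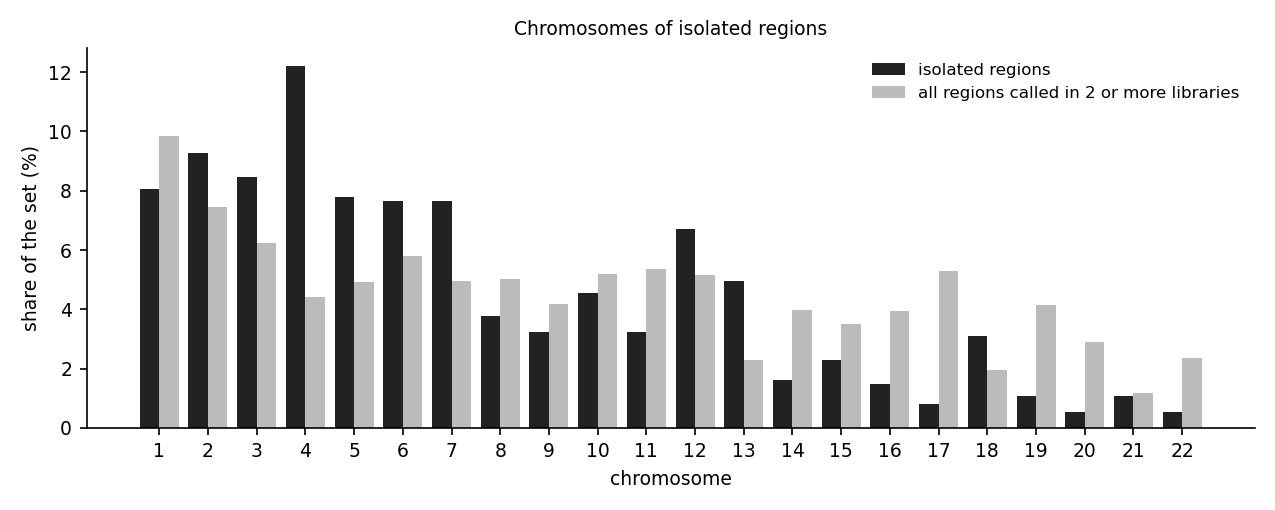
Share (%) of the 745 isolated regions (black) and of all regions called in 2 or more libraries (grey) on each of chromosomes 1 to 22. Chromosome 4 held 12.2% of isolated regions and 4.42% of all, and chromosome 17 held 0.805% and 5.29%.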

How the data were processed

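ATAC-seq peak lists of 3 NuMA-depleted and 3 wild-type HCT116 libraries were analysed, grouped by the genotype in the labels. Trim Galore, Picard and version 2.4.1 of Bowtie2 were used with hg19, per the submitters' processing notes. A macs2 folder appears in the deposited peak names. Not given in the sources used here are caller settings, read shift and artefact screening. Each sample has its own list. The deposited columns used were the interval, the summit offset, the fold enrichment (a linear ratio over the caller's local background), and the −log10 of the p-value and of the q-value (q-values at least 2.00). The deposited score follows the q-value and was not used.

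Peaks on chromosomes 1 to 22 were merged at 1 bp overlap. The first and last region of a chromosome, with 1 neighbour, were not members. A library with several peaks in a region gave that of highest −log10 q. Pileup and background were recovered with a Poisson model; 99.986% to 99.994% of peaks gave a whole number of fragments (within 0.01 in −log10 p). Relative depth was the lowest background divided by the smallest width; depth in reads is unknown. Group means were compared by exact permutation (20 assignments), and isolated with other regions by exact sign flips over 6 libraries (64), both two-sided, adjusted by Benjamini-Hochberg and called at 0.05. The merging, the rule, the recovery and the tests were tested on simulated lists. Named regions were the 10 strongest called in all libraries by weakest −log10 q, group-only regions (at most 6 a direction), the 3 widest, the 5 with the largest smaller gap and 3 on each side of the limit. Alternatives were other gap limits (50 and 200 kb), neighbours of 2 or more libraries only, open chromosome ends, 3 or more libraries, equal numbers of peaks (the 21332 strongest), a −log10 q minimum of 5, 250 bp on each side of the summit, each library left out, and a replicate block. The members, lists and tests were chosen with earlier results of these data known. Tools were scipy 1.17.1, pandas 2.3.3, numpy 2.4.6 and matplotlib 3.10.9 under Python 3.11.15.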

Additional observations from a re-analysis of the deposited data

How the results depend on the processing

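Comparisons restricted to regions called in all 6 libraries, to other regions at 20 kb or more from a neighbour, or without isolated regions beside 1 Mb or more, and the measures of pileup and background, were chosen after seeing the data. The 745 isolated regions became 2900 with a 50 kb limit, 162 with 200 kb, 1528 when only regions of 2 or more libraries counted as neighbours and 1311 with equal numbers of peaks. The share called in all libraries, 29.0% (background 38.5%), was 34.4% at 50 kb, where the background was the same. It was 38.7% when 3 or more libraries were required, where 16670 of all 35219 regions were called in all 6. It was 40.2% at equal numbers and, over omissions of 1 library, 32.4% to 37.9%. For these last settings the background was not computed, so their shares cannot be set beside 38.5%. NuMA-depleted-only regions, 3 (0.403%, background 0.832%), numbered 24 at 50 kb (0.828%, background 0.832%) and 2 at 200 kb (1.23%, background 0.832%). With neighbours of 2 or more libraries only there were 10 (0.654%, background 0.832%). They numbered 5 with a −log10 q of at least 5 (0.545%, background 0.804%) and 21 at equal numbers (1.60%, background 1.65%). Over omissions of 1 library they ran from 7 (without NuMA-depleted replicate 2, 0.884%, background 1.11%, or wild-type replicate 2, 0.930%, background 1.7%) to 51 (without NuMA-depleted replicate 3, 6.81%, background 6.18%). Wild-type-only regions, 13 (1.74%, background 0.79%), numbered 38 at 50 kb (1.31%, background 0.79%) and 4 at 200 kb (2.47%, background 0.79%). They numbered 22 with neighbours of 2 or more libraries only (1.44%, background 0.79%) and 20 at equal numbers (1.53%, background 1.25%). Over omissions of 1 library they ran from 15 (without NuMA-depleted replicate 3, 2.003%, background 0.844%) to 36 (without NuMA-depleted replicate 2, 4.55%, background 3.32%). The difference between isolated and other regions in recovery by a left-out library, -7.27 points, was -3.80 at equal numbers, -4.08 at 50 kb and -7.09 to -5.99 without each library. The difference in fold, 0.636, turned to -0.0372 against other regions at 20 kb or more and was 0.598 to 0.719 without each library. The difference in width, -57.9 bp, turned to 15.2 bp among regions called in all 6 libraries, was -14.0 bp at 50 kb (exact p = 0.0938), -21.7 bp at equal numbers and -62.6 to -48.2 bp without each library. The difference in summit distance, -3.00 bp, missed the threshold at -1.50 bp (50 kb), -1.67 bp (neighbours of 2 or more libraries only), -3.21 bp (3 or more libraries), -4.92 bp (all 6 libraries) and -1.58 bp (others at 20 kb or more), and was -4.30 to -1.75 bp without each library. The difference in pileup, -5.92 fragments, was -2.92 among regions called in all 6 libraries, -3.33 at 50 kb and -6.40 to -5.00 without each library. That in background, -1.03 fragments, was -0.558 against others at 20 kb or more and -1.06 to -0.934 without each library. With 5 libraries the sign-flip test cannot go below 0.0625, so with a library left out none of these differences can pass the threshold. For the other changes the cause was not tested. The difference between NuMA-depleted and wild-type libraries in recovery, -2.70 points, ranged from -14.4 to 8.85 and that in width, 28.5 bp, from 4.92 to 44.2 bp without each library. Same-numbered replicates of the groups did not deviate together in fold (correlations of log2 fold deviations over 16670 regions -0.0252, -0.014 and -0.016). Whether same-numbered libraries were prepared together is not known. With a replicate block, which cannot go below 0.25, the differences between groups in recovery and width had exact p = 0.75 and p = 0.5. They kept their values of -2.70 points and 28.5 bp. Depth in reads is unknown, and a missing call sets no limit on accessibility.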

Other observations

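On the X chromosome, outside the rule, isolated regions were more frequent than over chromosomes 1 to 22. By the same limits 71 of its 861 regions called in 2 or more libraries were isolated (8.25%), against 1.72% on the other chromosomes and 4.75% on chromosome 4, the highest of those. No test was made of this difference. Of the 71, 27 were called in all 6 libraries, and a further 32 isolated regions of the X chromosome were called in 1 library. How many of all the X chromosome's regions were called in all 6 libraries was not counted.

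Some empty stretches that border an isolated region were long. The longest gap of its chromosome stood beside 9 isolated regions. How much of these gaps can be mapped was not tested. On chromosome 5 the region at 31408415 to 31409168, called in 4 libraries with folds from 4.78 to 6.58, had 14.2 Mb without a peak in the lists analysed here before it and 123 kb after it. Whether that stretch holds peaks not analysed here is not known. On chromosome 11 the region at 56700371 to 56700791 was called in NuMA-depleted replicates 2 and 3 alone, with folds of 8.14 and 8.23, after 8.51 Mb without a peak in those lists. On chromosome 12 the region at 34371314 to 34371767 had 4.08 Mb empty after it and was called in NuMA-depleted replicate 2 with a fold of 6.49 and in wild-type replicates 2 and 3 with 6.32 and 5.29.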
